A study of Homo sapiens with 6 samples.

Results

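Cholesterol and fatty acid synthesis genes were examined in U251 cells, an established human glioblastoma line, by RNA sequencing. The set held 34 genes chosen by symbol for their place in these pathways, 20 of the sterol branch and 14 of the fatty acid branch. The table of gene names matched 33 of them to 1 of the 20330 Ensembl identifiers listed in every library. ACACA, the cytosolic acetyl-CoA carboxylase, was not matched to a listed identifier and has no value here, which left 13 genes in the fatty acid branch. All 33 matched genes passed the filter on low values described below.

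The study compared control U251 cells with U251 cells made to overexpress XLOC013218, a long noncoding RNA, by stable expression, with 3 libraries per group. Both groups were grown under the same culture conditions to near confluence, and the genotype labels read control and LncRNA XLOC013218-overexpression. What the control cells carry, and whether the overexpressing cells are 1 clone or a pool, is not stated in any source used. The design text describes the replicates of a group as biologically independent, and p-values measure the spread between these libraries. The labels' protocols describe poly(A)-selected stranded libraries, while the design text describes cytoplasmic RNA without that selection. XLOC013218 itself has no value here, since its locus was not analysed.

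As background, animal cells build cholesterol from acetyl-CoA through mevalonate, squalene and lanosterol, and build fatty acids from the same acetyl-CoA through malonyl-CoA. Both branches are controlled by the SREBP transcription factors, which stay in the endoplasmic reticulum while sterols are plentiful and move to the nucleus when sterols fall. SREBP-2, from SREBF2, acts mainly on sterol genes, and SREBP-1, from SREBF1, mainly on fatty acid genes. Glioblastoma cells are known to depend on SREBP-1 activity downstream of growth factor signalling.

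With XLOC013218 overexpressed, the median log2 difference was 0.02 over the sterol genes and -0.04 over the fatty acid genes. Of the 33 genes, 0 were called higher and 0 lower at a limma adjusted p under 0.05, against 61 of all 11731 genes tested, or 0.52%. Those 61 were 37 higher and 24 lower. After rescaling to TPM 61 genes were also called, 30 higher and 31 lower, and 50 of them were shared with the first 61. FADS2 (ENSG00000134824), the fatty acid desaturase that acts on linoleic and alpha-linolenic acid, came nearest, with means of 55.1 ± 0.586 and 44.0 ± 4.60 FPKM in control and overexpression libraries (SD, n = 3 per group, limma adjusted p = 0.108). The most abundant enzymes of fatty acid synthesis overlapped between the groups, with FASN at 176 ± 2.72 and 178 ± 5.10 FPKM and SCD at 306 ± 6.22 and 313 ± 13.8 FPKM. HMGCS1, which makes the HMG-CoA that feeds the mevalonate route, was at 14.3 ± 1.23 and 14.3 ± 0.949 FPKM. In bulk libraries, less RNA of a gene per cell and fewer cells with that RNA cannot be told apart.

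FPKM values are fragments per kilobase of transcript, scaled to the mapped fragments of each library, so levels can be compared between genes per length. Depth in reads is unknown. Steps between low FPKM values put the relative depth of the libraries between 0.77 and 1.00 of the deepest, with overlap between the groups. The summed FPKM of the Ensembl genes lay between 598683 and 621922, and 22.6% to 23.3% of genes were listed at 0 in control libraries against 21.5% to 21.9% in overexpression libraries. Of 8 glial and glioma markers, 7 reached 1 FPKM in both groups, among them VIM, NES, CD44 and SOX2, while the glial marker S100B averaged less. The summed level of the 8 was 5095 to 5478 FPKM in the control libraries and 4814 to 5033 FPKM in overexpression libraries. That of 5 immune markers was 7.78 to 9.20 and 11.2 to 12.7 FPKM, most of it CD68, with CD3E listed at 0 in every library. PTPRC was too low to be tested, at 0.13, 0.17 and 0.15 FPKM in control and 0.65, 0.39 and 0.52 FPKM in overexpression libraries, without overlap. CD14 overlapped between the groups. CD68 was at 7.46, 7.49 and 6.61 FPKM in the control libraries and 9.79, 11.11 and 9.53 FPKM in the overexpression libraries. Its groups did not overlap (log2 difference 0.44, limma adjusted p = 0.0831), and this was the lowest adjusted p of the markers tested. At an unadjusted limma p under 0.05, 3 of the 7 glial and glioma markers tested were lower and 0 higher. Of all tested genes, 6.9% were lower and 5.81% higher at that p, and 10.1% were lower and 8.81% higher without overlap. The 3 glial and glioma markers did not overlap between the groups. Of these, SOX2, a neural stem cell factor, was at 116 ± 2.44 and 102 ± 3.37 FPKM, and EGFR, a growth factor receptor, at 27.1 ± 0.368 and 24.0 ± 1.151 FPKM (SD, n = 3 per group, limma adjusted p = 0.120 and 0.288). GFAP, an astrocyte filament gene, was at 41.6 ± 6.06 and 21.6 ± 7.91 FPKM (SD, n = 3 per group, limma adjusted p = 0.107). Neuronal markers (3) summed to 9.56 to 10.4 and 8.65 to 11.3 FPKM, endothelial (2) to 0.54 to 0.76 and 0.37 to 0.57 FPKM, epithelial (3) to 0.14 to 0.60 and 0 to 1.0 FPKM, and oligodendrocyte (3) to 0 to 0.05 and 0 to 0.42 FPKM. The part of these differences in the results below was not tested.

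Promoter sequence is shown for both SREBP genes and for the 4 enzyme genes that differed at an unadjusted limma p under 0.05, since sterol-responsive promoters are known to hold elements of this kind near the start. Each line gives the 160 bases before the annotated start in the RefSeq table of GRCh38.p14, 5′ to 3′ on the gene's strand. Where the table holds several starts for a gene (FADS2 and ACSS2), the one with most motif copies in the stretch is shown. Capitals mark exact copies, on either strand, of the sterol regulatory element TCACNCCAC, the E-box CACGTG, the NF-Y box CCAAT or the GC box GGGCGG.
SREBF2, chr22:41832945-41833104, plus strand: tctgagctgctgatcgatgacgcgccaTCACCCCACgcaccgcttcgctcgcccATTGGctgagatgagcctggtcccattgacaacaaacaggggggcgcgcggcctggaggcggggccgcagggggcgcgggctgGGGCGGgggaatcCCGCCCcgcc
SREBF1, chr17:17836987-17837146, minus strand: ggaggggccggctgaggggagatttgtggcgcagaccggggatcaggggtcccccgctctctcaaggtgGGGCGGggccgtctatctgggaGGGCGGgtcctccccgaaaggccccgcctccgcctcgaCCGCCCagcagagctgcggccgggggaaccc
FADS2, chr11:61816244-61816403, plus strand: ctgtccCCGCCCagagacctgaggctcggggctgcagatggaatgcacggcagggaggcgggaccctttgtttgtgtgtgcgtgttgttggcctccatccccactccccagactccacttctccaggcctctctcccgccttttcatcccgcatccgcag
ACSS2, chr20:34876452-34876611, plus strand: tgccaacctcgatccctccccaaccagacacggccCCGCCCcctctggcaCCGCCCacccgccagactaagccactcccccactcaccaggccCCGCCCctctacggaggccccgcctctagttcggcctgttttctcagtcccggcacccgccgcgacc
LSS, chr21:46228775-46228934, minus strand: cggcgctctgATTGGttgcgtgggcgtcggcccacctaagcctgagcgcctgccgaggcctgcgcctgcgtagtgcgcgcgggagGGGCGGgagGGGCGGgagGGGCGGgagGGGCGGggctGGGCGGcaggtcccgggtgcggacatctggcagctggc
ACSL3, chr2:222860876-222861035, plus strand: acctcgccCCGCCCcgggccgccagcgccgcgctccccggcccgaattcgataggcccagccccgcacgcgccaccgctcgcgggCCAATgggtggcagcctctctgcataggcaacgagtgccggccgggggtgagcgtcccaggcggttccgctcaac

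The SREBF2 stretch holds a sterol regulatory element followed by an NF-Y box, the LSS stretch an NF-Y box and 5 GC boxes, and the SREBF1 stretch 3 GC boxes. Over the full windows of 300 bases (250 before to 50 after the start), 31 of the 34 genes were in the table. A copy of the sterol regulatory element in these exact letters was found for 2 of the 31, SREBF2 and ACSL1, against 1.39% of all 27305 genes in the table. The E-box was found for 4 of 31 (8.77% of all genes), the NF-Y box for 26 of 31 (39.7% of all genes) and the GC box for 29 of 31 (48.3% of all genes). A gene counted if any of its windows held the motif, and some genes had several windows. For ACSL1 the sterol element was in the window at chr4:184805504-184805803 alone, and its other windows held none. Gene-level values do not show which start is used. Per window, the NF-Y box was in 65.2% of 46 member windows, against 34.6% of all 35116 windows. The GC box was in 80.4% of the member windows, against 44.95% of all windows. The shares of all genes and of all windows cover every listed promoter, not only those of the 11731 genes tested here. A comparison with expressed genes alone was not made. NF-Y boxes were present in 16 of 18 sterol genes and 10 of 13 fatty acid genes, with as many as 5 copies in a window of MVK and in one of NSDHL. Copies were counted also where they shared letters, and a match describes the window only.

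The median log2 difference of the 25 tested genes with an NF-Y box was -0.01, and that of the 5 without was -0.04. SREBF2 and ACSL1, the pair with the sterol element in any window, had log2 differences of -0.12 and 0.11.

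**Figure D1:**
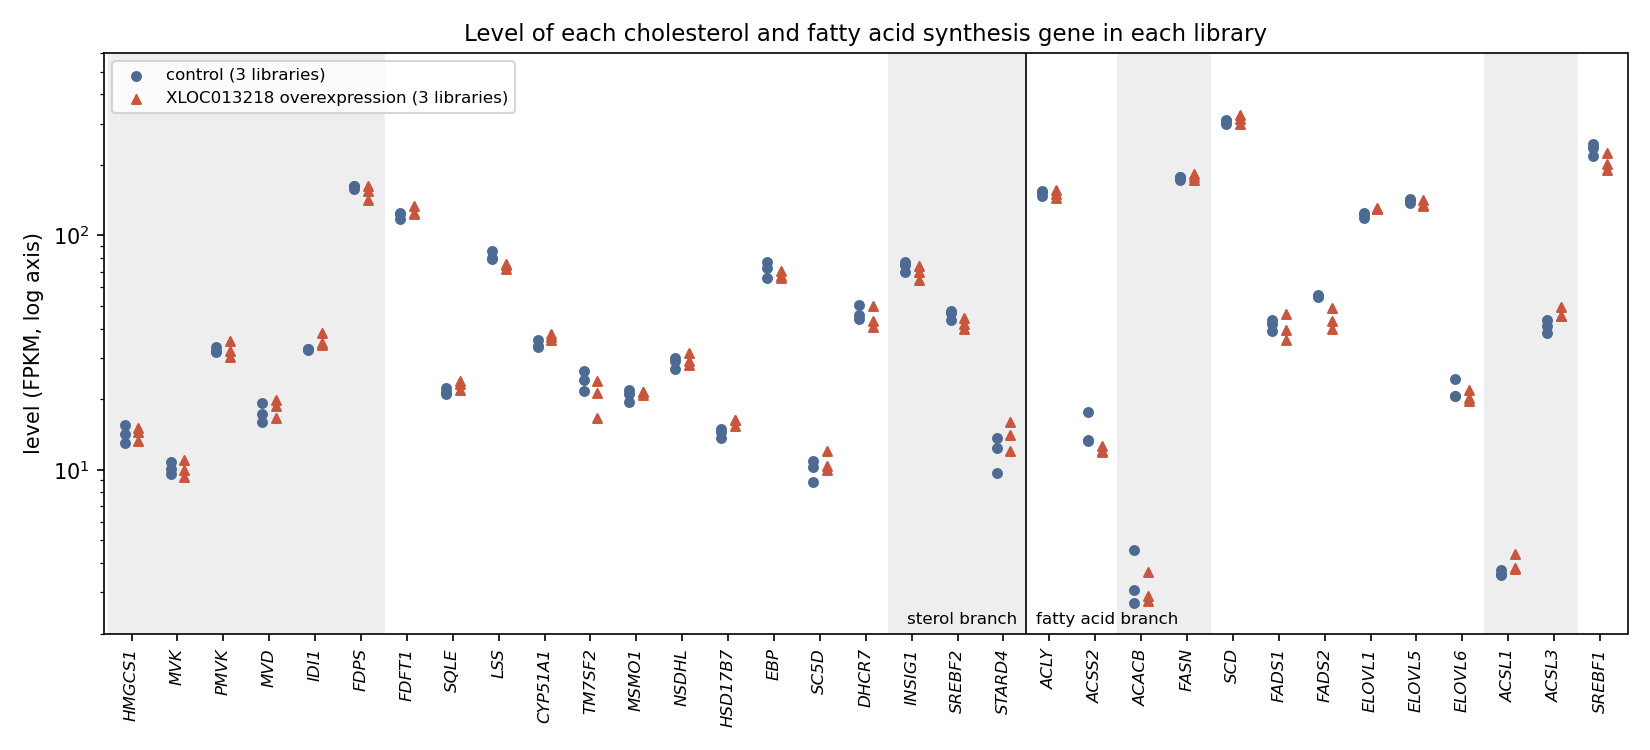
Level of each matched gene in FPKM on a log axis, with 3 control libraries (circles) and 3 overexpression libraries (triangles), grouped by role in shaded bands and by branch. Means run from 3.27 FPKM for ACACB to 309 FPKM for SCD. The groups overlap for 24 of 33 genes, against 9517 of all 11731 genes tested.

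Among the enzymes of the mevalonate steps, which carry acetyl-CoA units to farnesyl diphosphate, FDPS was the most abundant and IDI1 had the largest log2 difference over the 6 libraries. FDPS, which makes farnesyl diphosphate, was at 162, 162 and 159 FPKM in control replicates 1 to 3 and at 155, 162 and 141 FPKM in overexpression replicates 1 to 3. The groups overlapped, and the log2 difference, overexpression minus control, was -0.08 (SE 0.06, limma adjusted p = 0.617), or -0.02 without overexpression replicate 3 and -0.12 without overexpression replicate 2. IDI1, which isomerises isopentenyl diphosphate, was at 32.8, 32.4 and 32.6 FPKM in the control libraries and 34, 38.2 and 34.7 FPKM in the overexpression libraries. Its 3 overexpression values lay above every control value, by a log2 difference of 0.12 (SE 0.06, limma adjusted p = 0.441). That difference was 0.07 without overexpression replicate 2, when FDPS differed more, and MVD was slightly above IDI1 without control replicate 1 (0.129 and 0.127). HMGCS1, MVK, PMVK and MVD, the synthase, the 2 kinases and the decarboxylase of the route, had log2 differences between -0.01 and 0.06, with overlap in each. Their mean levels over the 6 libraries ran from 10.1 FPKM for MVK to 32.5 FPKM for PMVK.

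The 11 enzymes from squalene to cholesterol differed in both directions, with 7 positive and 4 negative log2 differences and a median of 0.05. FDFT1, the squalene synthase, was the most abundant, at 118, 124 and 124 FPKM in the control libraries and 125, 133 and 124 FPKM in the overexpression libraries (log2 difference 0.06, limma adjusted p = 0.663). LSS (ENSG00000160285), which closes squalene epoxide into lanosterol, was at 85.5, 80.4 and 79.0 FPKM in the control libraries and 75.5, 71.8 and 74.4 FPKM in the overexpression libraries. All 3 overexpression values lay below all 3 control values (log2 difference -0.14, SE 0.05, limma adjusted p = 0.285), and this was the sterol gene with the lowest p. TM7SF2, a sterol reductase, had the largest difference of the 11, at 24.1, 26.4 and 21.6 FPKM in the control libraries and 23.9, 16.6 and 21.3 FPKM in the overexpression libraries. Overexpression replicate 2 alone was far below the others, and the log2 difference of -0.22 (SE 0.12, limma adjusted p = 0.506) went to -0.08 without it.

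CYP51A1, the lanosterol demethylase, and HSD17B7, a sterol ketone reductase, were higher in each overexpression library than in any control library. CYP51A1 was at 34.2 ± 1.25 and 36.9 ± 1.14 FPKM and HSD17B7 at 14.4 ± 0.632 and 16.0 ± 0.497 FPKM (SD, n = 3 per group). Neither passed, with log2 differences of 0.10 and 0.15 and limma adjusted p = 0.483 and 0.424. SQLE, the squalene epoxidase and a control point of the route, was at 21.6 ± 0.649 and 23.0 ± 1.01 FPKM with overlap. The remaining enzymes, MSMO1, NSDHL, EBP, SC5D and DHCR7, overlapped between the groups, with log2 differences from -0.08 to 0.11.

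Genes that sense or carry sterols did not pass either. INSIG1, which holds SREBPs in the endoplasmic reticulum and is itself an SREBP target, was at 69.6, 74.4 and 76.8 FPKM in the control libraries and 73.9, 64.3 and 70.0 FPKM in the overexpression libraries. The groups overlapped (log2 difference -0.08, SE 0.06, limma adjusted p = 0.638). The difference was -0.03 without overexpression replicate 2, -0.05 without control replicate 3 and -0.13 without overexpression replicate 1. SREBF2 was at 46.5, 47.6 and 43.6 FPKM in the control libraries and 41.9, 40.01 and 44.3 FPKM in the overexpression libraries. Only overexpression replicate 3 reached into the control range, and the log2 difference was -0.12 (SE 0.06, limma adjusted p = 0.436). STARD4, a cytosolic sterol carrier, was at 9.70, 13.6 and 12.4 FPKM in the control libraries and 11.97, 16.0 and 14.1 FPKM in the overexpression libraries. Its log2 difference of 0.22 (SE 0.13, limma adjusted p = 0.542) was the highest of the set. Leaving out control replicate 1 gave 0.09, and leaving out overexpression replicate 2 gave 0.13.

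In the fatty acid branch, the supply of acetyl-CoA was measured through ACLY and ACSS2. ACLY, which splits citrate, was at 155, 153 and 148 FPKM in the control libraries and 145, 150 and 156 FPKM in the overexpression libraries, with full overlap (log2 difference -0.01, SE 0.05, limma adjusted p = 0.933). ACSS2 (ENSG00000131069), which activates acetate, was at 17.6, 13.5 and 13.3 FPKM in the control libraries and 11.9, 12.6 and 12 FPKM in the overexpression libraries. The groups did not overlap, but control replicate 1 stood above the other two. The log2 difference of -0.25 (SE 0.11, limma adjusted p = 0.373) went to -0.13 without control replicate 1 (limma adjusted p = 0.665, in a range of 0.286 to 0.665 over its alternatives).

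Under chain synthesis, FASN, the fatty acid synthase, and ACACB, the mitochondrial acetyl-CoA carboxylase, had values, while ACACA, the cytosolic carboxylase, had none. FASN was at 173, 177 and 178 FPKM in the control libraries and 182, 172 and 178 FPKM in the overexpression libraries (log2 difference 0.01, SE 0.04, limma adjusted p = 0.933). ACACB had the lowest level of the set, at 2.69, 4.53 and 3.07 FPKM in the control libraries and 3.67, 2.89 and 2.75 FPKM in the overexpression libraries. It also had the widest interval of the set, with a log2 difference of -0.10 and a limma 95% interval from -0.47 to 0.28.

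The desaturases and elongases gave the largest single difference. FADS2 was at 54.5, 55.7 and 55.0 FPKM in the control libraries and 43.1, 40.01 and 49.1 FPKM in the overexpression libraries. The control libraries lay close together and all 3 overexpression libraries below them. The log2 difference was -0.32 (SE 0.07, limma adjusted p = 0.108), a fold of 0.801 on the log2(FPKM + 1) scale with a 95% interval from 0.715 to 0.896, and it ranked 167 of 11731 genes by p. Leaving out each library in turn gave log2 differences from -0.40 to -0.26, and over the 15 alternatives the limma adjusted p ran from 0.0577 to 0.330.

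FADS1, the neighbouring desaturase gene on chromosome 11 that acts later in the same route, was at 41.8, 43.5 and 39.0 FPKM in the control libraries and 35.8, 39.4 and 46.1 FPKM in the overexpression libraries. Its groups overlapped, with a log2 difference of -0.04 (SE 0.09, limma adjusted p = 0.894). The FPKM ratio of FADS2 to FADS1, looked at after their values were seen, was 1.304, 1.28 and 1.41 in control and 1.20, 1.02 and 1.06 in overexpressing cells, without overlap. SCD, the stearoyl-CoA desaturase that makes oleate, was the most abundant gene of the set, at 310, 308 and 298 FPKM in the control libraries and 299.7, 312 and 327 FPKM in the overexpression libraries (log2 difference 0.03, SE 0.05, limma adjusted p = 0.821). ELOVL1, an elongase of very long saturated chains, was higher in each overexpression library, at 122 ± 3.19 and 130 ± 0.602 FPKM (SD, n = 3 per group, limma adjusted p = 0.432). ELOVL5 and ELOVL6 overlapped, with log2 differences of -0.04 and -0.09.

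Among the genes of fatty acid activation to acyl-CoA was the 1 member that was higher at an unadjusted limma p under 0.05. ACSL3 (ENSG00000123983), an acyl-CoA synthetase of the endoplasmic reticulum and lipid droplets, was at 41.0, 38.5 and 43.4 FPKM in the control libraries and 45.3, 45.2 and 49.5 FPKM in the overexpression libraries. The groups did not overlap, with a log2 difference of 0.18 (SE 0.06, limma adjusted p = 0.274). ACSL1, another acyl-CoA synthetase, was low, at 3.62 ± 0.0839 and 3.98 ± 0.327 FPKM, also without overlap (log2 difference 0.11, limma adjusted p = 0.720).

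SREBF1 (ENSG00000072310), the regulator of the branch, was the second most abundant gene of the set. It was at 247, 235 and 218 FPKM in the control libraries and 201, 191 and 224 FPKM in the overexpression libraries. Overexpression replicate 3 lay above control replicate 3, so the groups overlapped, and the log2 difference was -0.19 (SE 0.07, limma adjusted p = 0.301). Per length, SREBF1 was 4.94 to 5.30 times as abundant as SREBF2 in control libraries and 4.77 to 5.06 times in overexpression libraries. The gene-level values do not separate the SREBP-1a and SREBP-1c transcripts.

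**Figure D2:**
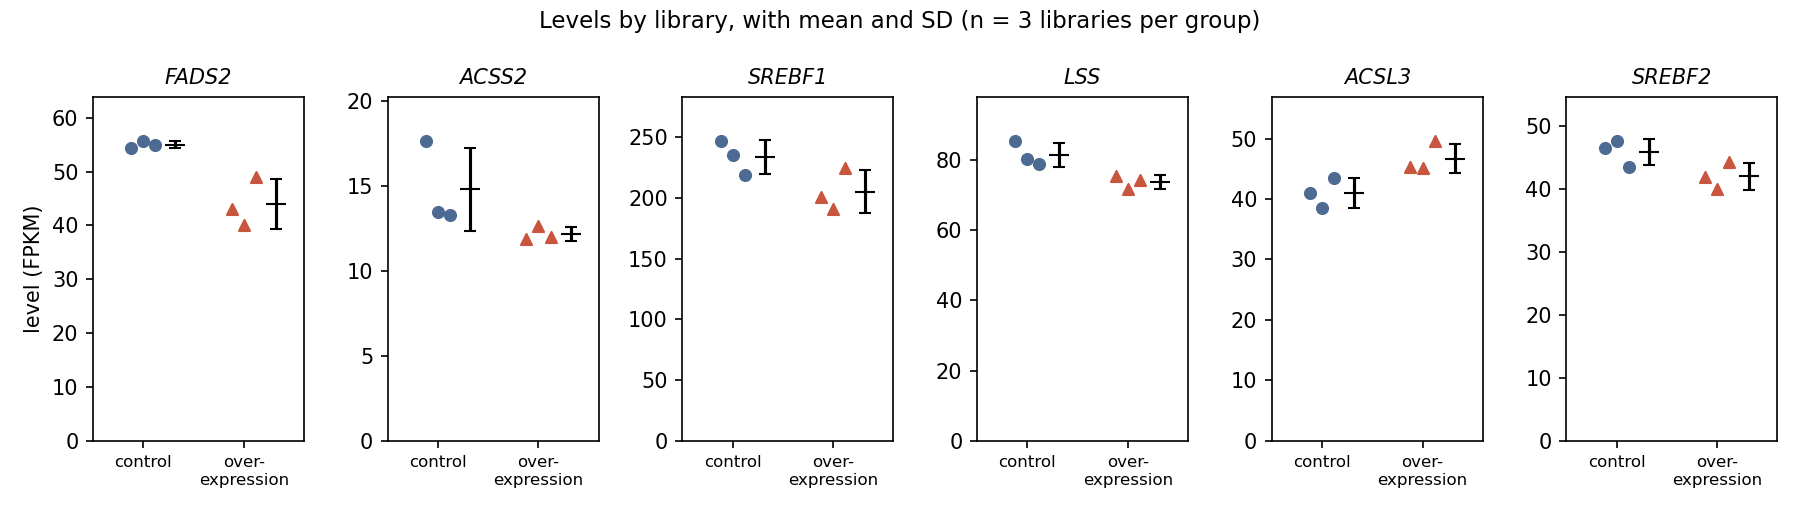
FPKM of 6 genes in each library (control circles, overexpression triangles), with mean and SD beside each group and every axis starting at 0. FADS2, ACSS2 and LSS are lower and ACSL3 higher in all 3 overexpression libraries, while SREBF1 and SREBF2 overlap through overexpression replicate 3.

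Counts at looser thresholds are given beside the share of all tested genes. At an unadjusted limma p under 0.05, 1 of 33 was higher (3.03%, against 5.81% of all tested genes) and 4 were lower (12.1%, against 6.9%), namely FADS2, SREBF1, LSS and ACSS2. The number lower was 1 without control replicate 1 or without overexpression replicate 2 and 6 without control replicate 3, and the number higher was 3 without overexpression replicate 1 and 0 without control replicate 2 or overexpression replicate 3. The unadjusted p of FADS2 stayed under 0.05 in each of the 15 alternatives, the largest being 0.0067 in limma. Groups that did not overlap were found for 6 genes higher (18.2%, against 8.81% of all tested genes) and 3 lower (9.09%, against 10.1%). The 6 were IDI1, CYP51A1, HSD17B7, ELOVL1, ACSL1 and ACSL3, and their log2 differences ran from 0.09 to 0.18.

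The intervals limit how large a change could have gone uncalled. For 31 of 33 genes the limma 95% interval of the log2 difference lay within -0.5 and 0.5, against 88.4% of all tested genes. That bound is 1.41-fold either way in FPKM + 1, and more in FPKM itself, most of all for low genes such as ACACB. The exceptions were TM7SF2, whose interval reached -0.503, and STARD4, whose interval reached 0.523. For FASN the interval was -0.08 to 0.11, for SCD -0.07 to 0.14, for ACLY -0.12 to 0.09 and for HMGCS1 -0.19 to 0.19. The set was measured with somewhat less scatter than genes at large, with a median coefficient of variation of 4.99% in control and 6.16% in overexpression libraries, against 6.59% and 6.90% over all tested genes, and a median level of 35.6 against 16.9 FPKM.

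**Figure D3:**
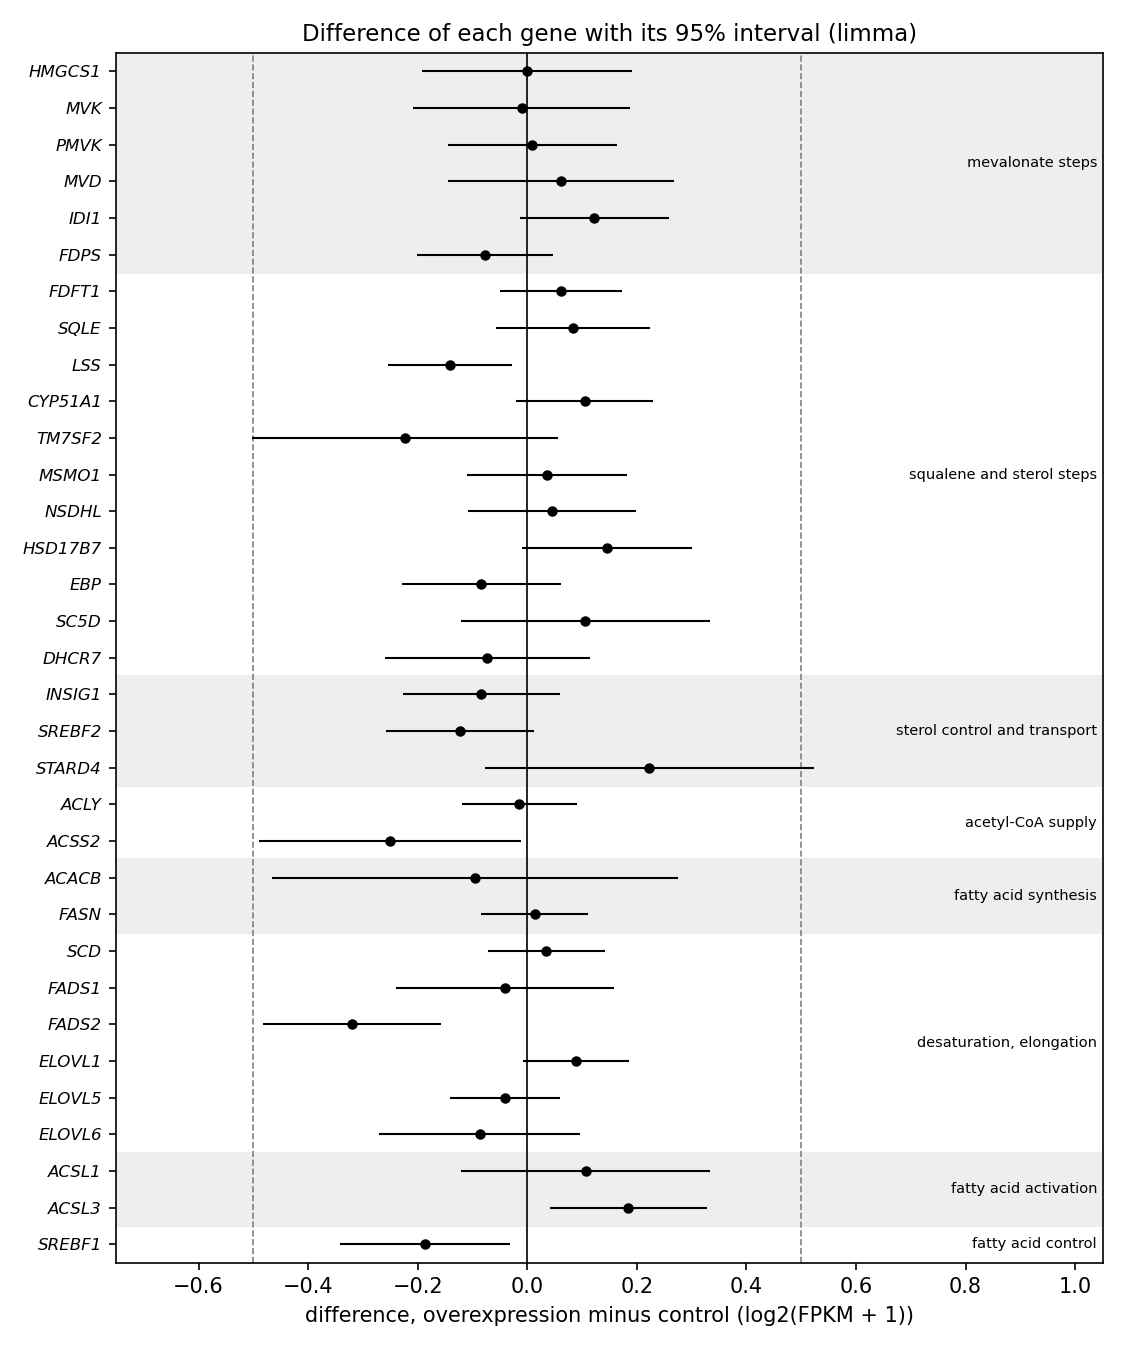
Log2 difference (overexpression minus control, log2(FPKM + 1)) of each gene with its limma 95% interval, in shaded bands by role, with dashed lines at -0.5 and 0.5. The interval of FADS2 lies furthest from 0, and those of TM7SF2 and STARD4 alone cross a dashed line.

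Between the branches, medians lay on opposite sides of 0, at 0.02 over the 20 sterol genes and -0.04 over the 13 fatty acid genes, against -0.00078 over all tested genes. After rescaling to TPM the medians were 0.0089 and -0.055. The difference between the branches was not tested. In the sterol branch 11 differences were positive and 9 negative, and in the fatty acid branch 5 were positive and 8 negative. By library, the median deviation of the sterol genes from their control means was -0.0050, 0.017 and -0.0048 in control and 0.0082, 0.039 and 0.019 in overexpressing cells. That of the fatty acid genes was 0.011, 0.014 and -0.034 in control and -0.027, -0.030 and 0.019 in overexpressing cells. Leaving out each library in turn moved the sterol median between 0.00067 (without control replicate 3) and 0.044 (without overexpression replicate 1). The fatty acid median lay between -0.034 and -0.0051, each time nearer 0 than the -0.04 with all libraries. It was nearest 0 without control replicate 2 and, at -0.0057, without overexpression replicate 1. The library medians of the fatty acid genes averaged -0.0029 ± 0.027 in control and -0.013 ± 0.028 in overexpressing cells (SD, n = 3 per group). Those of the sterol genes averaged 0.0024 ± 0.013 and 0.022 ± 0.016. Summed over members, the sterol branch held 875 ± 8.07 FPKM in the control libraries and 861 ± 2.29 FPKM in the overexpression libraries, and the fatty acid branch 1311 ± 23.2 and 1284 ± 42.4 FPKM (SD, n = 3 per group). By library, the sterol sum was 875, 883 and 867 FPKM in control and 860, 863 and 859 FPKM in overexpressing cells. It was thus lower without overlap, opposite in direction to the sterol median. The fatty acid sums overlapped, and neither sum was tested.

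**Figure D4:**
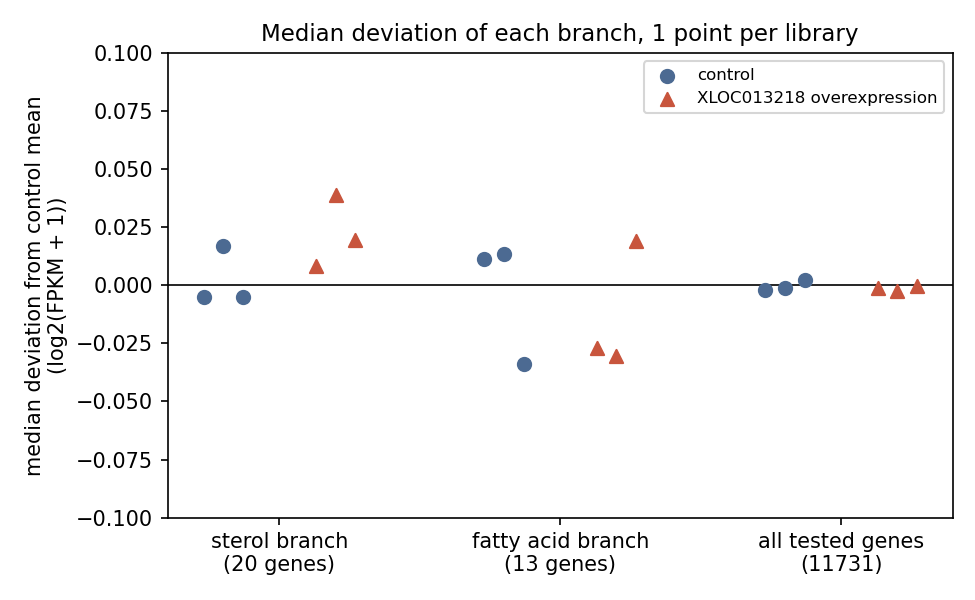
Median deviation from the control mean on the log2(FPKM + 1) scale, 1 point per library, for the sterol branch, the fatty acid branch and all tested genes. All branch medians lie between -0.034 and 0.039.

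The neighbouring pathways, taken from lists of other lipid genes, gave 0 calls in limma as well. Of 7 other sterol synthesis genes, 0 were higher and 2 lower at an unadjusted limma p under 0.05, with a median log2 difference of -0.04. POR, the reductase that feeds electrons to CYP51A1 and SQLE, was at 77.4, 73.9 and 73.1 FPKM in the control libraries and 70.7, 63.7 and 65.2 FPKM in the overexpression libraries. It did not pass (log2 difference -0.17, limma adjusted p = 0.254), nor did CYB5R3, the cytochrome b5 reductase, at 117, 121 and 112 against 111, 107 and 105 FPKM (log2 difference -0.11, limma adjusted p = 0.377).

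None of the 10 genes that escort, cleave or degrade SREBP and its partners reached an unadjusted limma p under 0.05, and their median was -0.02. SCAP, the SREBP escort protein, was at 31.0, 33.0 and 30.2 FPKM in the control libraries and 29.4, 29.6 and 30.2 FPKM in the overexpression libraries (log2 difference -0.07, limma adjusted p = 0.645). Of 22 genes of cholesterol uptake, transport and efflux, 17 were tested, with 1 higher and 0 lower at an unadjusted p under 0.05 and a median of 0.04. That gene was LIPA, the lysosomal acid lipase that frees cholesterol from its esters, at 56.7, 57.3 and 55.9 FPKM in the control libraries and 59.8, 62.6 and 64.1 FPKM in the overexpression libraries (log2 difference 0.13, limma adjusted p = 0.303).

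Of 26 other fatty acid synthesis genes, 18 were tested, with 1 higher and 1 lower at an unadjusted limma p under 0.05 and a median of 0.01. SCD5, the other stearoyl-CoA desaturase, was at 19.5, 20.0 and 18.3 FPKM in the control libraries and 15.2, 17.3 and 16.4 FPKM in the overexpression libraries, below the control range in all 3 (log2 difference -0.23, limma adjusted p = 0.247). ELOVL2, which elongates polyunsaturated chains made by FADS2 and FADS1, was low and above the control range in all 3, at 1.92, 2.00 and 1.87 FPKM against 2.51, 2.59 and 2.50 FPKM (log2 difference 0.27, limma adjusted p = 0.339).

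Of 14 glycerolipid synthesis genes 11 were tested, with 1 higher, 0 lower and a median of -0.03. The gene was DGAT2, which completes triacylglycerol, at 1.51, 1.02 and 1.03 FPKM in the control libraries and 1.58, 2.04 and 1.62 FPKM in the overexpression libraries (log2 difference 0.33, limma adjusted p = 0.380). Of 16 fatty acid oxidation genes 15 were tested, with 0 higher, 1 lower and a median of -0.04. The gene was ACADS, the short-chain acyl-CoA dehydrogenase, at 4.84, 4.95 and 4.61 FPKM in the control libraries and 3.60, 3.39 and 4.10 FPKM in the overexpression libraries (log2 difference -0.31, limma adjusted p = 0.258). These counts can be set beside the 5.81% and 6.9% of all tested genes that were higher and lower at that level.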

How the data were processed

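RNA was sequenced in 6 U251 libraries, grouped by title into 3 control and 3 overexpression. The authors deposited FPKM values per gene, 1 table per library, rounded to 2 decimals. Tools listed in the submitters' processing notes are RSEM 1.3.1, Cufflinks 2.2.1, Bowtie, TopHat and edgeR. The build given there is hg18, and no tool has a stated role. The tables end at different places in the assembled loci, so only the 68 loci listed in every table were kept beside 20330 Ensembl genes, and an incomplete last line was not read. Symbols came from a table of gene names (19447 matched). Promoters are RefSeq's on GRCh38.p14. No depth in reads can be had from FPKM.

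Genes averaging 1 FPKM or more in the 6 libraries entered the test on log2(FPKM + 1), a scale that understates changes of low genes, with limma 3.58.1 (trend, group as the only term, two-sided) in R 4.3.3 with p-values adjusted by Benjamini-Hochberg over the 11731 genes tested. The script was tested on simulated data. An exact permutation test of 3 against 3 cannot go below 0.1, so none is given. Alternatives were other pseudocounts (0.1, 0.5), filters (none, 5 FPKM), TPM or quantile scaling, no trend, array weights, a replicate block and each library left out. Members and lists were chosen with earlier results of these data known. Values in every library are given for members at an unadjusted p under 0.05, the most abundant and most different member of each role, and SREBF1, SREBF2 and INSIG1. FADS1, and the ratios of FADS2 to FADS1 and of SREBF1 to SREBF2, were added after values were seen. From other lists, members at an unadjusted p under 0.05 are named, with SCAP from the 4 most abundant of its list. GFAP, SOX2, EGFR and CD68 are named from the markers. Summaries used Python 3.11.15, pandas 2.3.3 and numpy 2.4.6.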

Additional observations from a re-analysis of the deposited data

How the results depend on the processing

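None of the 33 genes passed in any of the 15 alternatives in limma, where the lowest adjusted p was 0.0577 (FADS2 without overexpression replicate 3). Of 493 values of single genes under alternatives, 474 kept their direction and 19 changed sign, all in 10 genes whose main value lay between -0.10 and 0.06. HMGCS1 went from -4.8e-05 to 2.8e-05 with a pseudocount of 0.1, to 0.0043 under quantile normalization and to 0.024 with array quality weights, and PMVK to -0.0045 and FASN to -0.00076 after rescaling to TPM. With a library left out, values ranged from -0.058 to 0.058 for HMGCS1, -0.067 to 0.038 for MVK, -0.052 to 0.062 for PMVK, -0.22 to 0.076 for ACACB, -0.0073 to 0.070 for MSMO1, -0.0022 to 0.13 for MVD, -0.0017 to 0.081 for NSDHL, -0.041 to 0.012 for ACLY, -0.0057 to 0.035 for FASN and -0.14 to 0.041 for FADS1. Without a change of sign, they ranged from 0.026 to 0.082 for FDFT1, 0.0027 to 0.066 for SCD and 0.053 to 0.14 for ACSL1. The number of all genes called, 61, was 1 with no filter on low values or without a trend, 197 with array quality weights and 1 to 63 with a library left out (1 without control replicate 1 or 2, 2 without control replicate 3, 14, 63 and 23 without overexpression replicate 1, 2 and 3). The number of members higher at an unadjusted p under 0.05 was 3 with no filter or array weights, 2 under quantile normalization or without a trend, and 0 to 3 with a library left out. The number lower was 2 without a trend and 1 to 6 with a library left out, and the cause of these moves was not tested. With a library left out, the sterol median ran from 0.00067 to 0.044 and the fatty acid median from -0.034 to -0.0051. With the replicate number as a block, 19 genes were called in all, 0 of them members, and 2 members were higher at an unadjusted p under 0.05. Between same-numbered libraries, the correlations of the deviations from the group means were -0.04, -0.06 and 0.04 for numbers 1 to 3. Control replicates 1 and 2 correlated more with another number (0.09 and 0.06). Deviations sum to 0 within each group of 3 libraries, so these values do not settle whether same-numbered libraries share more than a number. ACSL1 and ACACB gave no value with a minimum mean of 5 FPKM.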
